A study of Homo sapiens with 12 samples.

Results

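The type I interferon response genes described here are 39 genes that cells switch on after interferon, taken by their symbol in the array platform's annotation, each read from its brightest probe set on average. Of these, 38 were tested among 19775 genes in all, and STAT2 was not analysed here. They were measured in MCF-10A, an established non-tumorigenic line of human mammary epithelial cells, as deposited log2 signals of Affymetrix arrays, on which the short probes of a probe set are summarised into 1 signal. All 4 groups were infected with a retrovirus and collected after 48 h, with 3 arrays labelled as biological replicates in each. The controls carried the vector alone, 1 group carried wild-type full-length Notch1, another Notch1 L1601P+∆P, and the last NICD. L1601P is a substitution in the part of the receptor that holds its subunits together, ∆P stands for loss of the C-terminal region that limits the life of the active form, and NICD is the free intracellular domain. The sample descriptions add gfp to the name of the NICD samples without saying what it stands for. The study has no interferon-treated and no uninfected group, so these levels are those of infected cells throughout. The labels do not say how separately the replicates were cultured and infected, so the spread behind each p-value is that of these samples and may be technical.

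Type I interferons bind the receptor chains IFNAR1 and IFNAR2, whose kinases JAK1 and TYK2 activate STAT2. Together with IRF9 it takes part in a factor that binds the interferon-stimulated response element in the promoters of its target genes, many of which block steps of viral growth. In epithelial cells the same genes keep a basal level without infection, and RNA and DNA sensors such as RIGI, IFIH1 and CGAS start interferon production when they meet viral nucleic acid.

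The response element itself is shown for 7 genes whose arrays behaved differently, to let the letters be set beside the values below. Each run is the 250 bases before the annotated start of transcription on the gene's own strand, from RefSeq (GRCh38.p14), and capitals mark every match to the element's core on either strand, which is GAAA, any 2 bases and GAAA again. IFI44L (chr1:78620198-78620447, + strand), BST2 (chr19:17405631-17405880, - strand) and OAS3 (chr12:112938224-112938473, + strand) were lower with NICD than with the vector. ISG15 (chr1:1013247-1013496, + strand), ISG20 (chr15:88638766-88639015, + strand) and SAMD9 (chr7:93117980-93118229, - strand) were higher. IFIT1 (chr10:89392373-89392622, + strand) was not called in either direction with all arrays.
IFI44L: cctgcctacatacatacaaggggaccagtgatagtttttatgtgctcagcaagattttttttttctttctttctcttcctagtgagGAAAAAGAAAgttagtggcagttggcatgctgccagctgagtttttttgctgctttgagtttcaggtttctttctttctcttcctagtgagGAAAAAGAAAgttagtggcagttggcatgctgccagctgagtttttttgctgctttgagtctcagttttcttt
BST2: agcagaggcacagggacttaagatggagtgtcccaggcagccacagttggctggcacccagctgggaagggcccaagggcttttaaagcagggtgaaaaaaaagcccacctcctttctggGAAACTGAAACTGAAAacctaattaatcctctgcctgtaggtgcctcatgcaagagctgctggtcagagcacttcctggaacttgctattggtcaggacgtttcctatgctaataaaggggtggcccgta
OAS3: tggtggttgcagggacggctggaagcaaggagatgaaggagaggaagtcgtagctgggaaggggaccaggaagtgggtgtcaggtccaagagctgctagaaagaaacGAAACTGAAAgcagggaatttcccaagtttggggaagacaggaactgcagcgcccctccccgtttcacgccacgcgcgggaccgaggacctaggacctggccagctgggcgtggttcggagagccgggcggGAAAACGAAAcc
ISG15: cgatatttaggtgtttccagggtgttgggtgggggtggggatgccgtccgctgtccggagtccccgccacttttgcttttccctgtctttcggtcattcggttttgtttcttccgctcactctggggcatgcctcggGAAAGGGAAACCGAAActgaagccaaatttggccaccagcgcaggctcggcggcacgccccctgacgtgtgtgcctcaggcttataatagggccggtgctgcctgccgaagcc
ISG20: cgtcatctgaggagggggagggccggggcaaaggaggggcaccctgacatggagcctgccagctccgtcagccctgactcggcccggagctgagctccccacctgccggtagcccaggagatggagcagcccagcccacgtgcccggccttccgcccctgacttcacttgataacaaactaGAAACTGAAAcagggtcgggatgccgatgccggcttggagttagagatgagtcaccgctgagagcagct
SAMD9: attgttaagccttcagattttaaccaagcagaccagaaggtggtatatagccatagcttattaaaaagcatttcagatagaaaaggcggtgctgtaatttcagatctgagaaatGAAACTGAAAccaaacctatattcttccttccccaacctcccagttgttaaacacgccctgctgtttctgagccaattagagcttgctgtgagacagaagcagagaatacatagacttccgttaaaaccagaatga
IFIT1: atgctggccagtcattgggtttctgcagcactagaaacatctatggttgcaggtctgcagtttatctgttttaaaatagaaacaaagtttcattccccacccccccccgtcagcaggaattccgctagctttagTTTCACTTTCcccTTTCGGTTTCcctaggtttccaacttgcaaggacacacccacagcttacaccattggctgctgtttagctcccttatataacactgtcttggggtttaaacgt

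Genes that fell and genes that rose both carried the core. Promoters were given for 30 of the 38 genes, and TRIM22, IRF7, IFITM2 and OAS2 are among those without one. Over windows of 300 bases, from 250 before to 50 after a start, 21 of the 30 genes (70.0%) held the core in at least 1 window, against 4.38% of the 27305 genes of that table. By call in NICD against vector, the core was present in 4 of 5 genes that fell, 7 of 9 that rose and 10 of 16 that were not called. Only the exact core was counted. The windows of OAS1, IFI35 and RIGI, counted without it, hold GAAA, 1 base and GAAA, so a gene without the core may still carry a variant. In BST2 and in ISG15 overlapping cores lay 130 and 124 bases, and 113 and 107 bases, before the start, so a similar arrangement stood in front of a gene that fell and a gene that rose. The IFI44L window holds 2 copies of a stretch of 85 bases, 91 bases apart, each with 1 core. The gamma-activated site core TTCNNNGAA was found in 10 of 30 genes (33.3%) against 9.38% of all, and TGGGAA, the core bound by the Notch partner RBPJ, in 6 of 30 against 28.1%, both strands searched. Such matches describe letters in these windows and not binding.

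**Figure D1:**
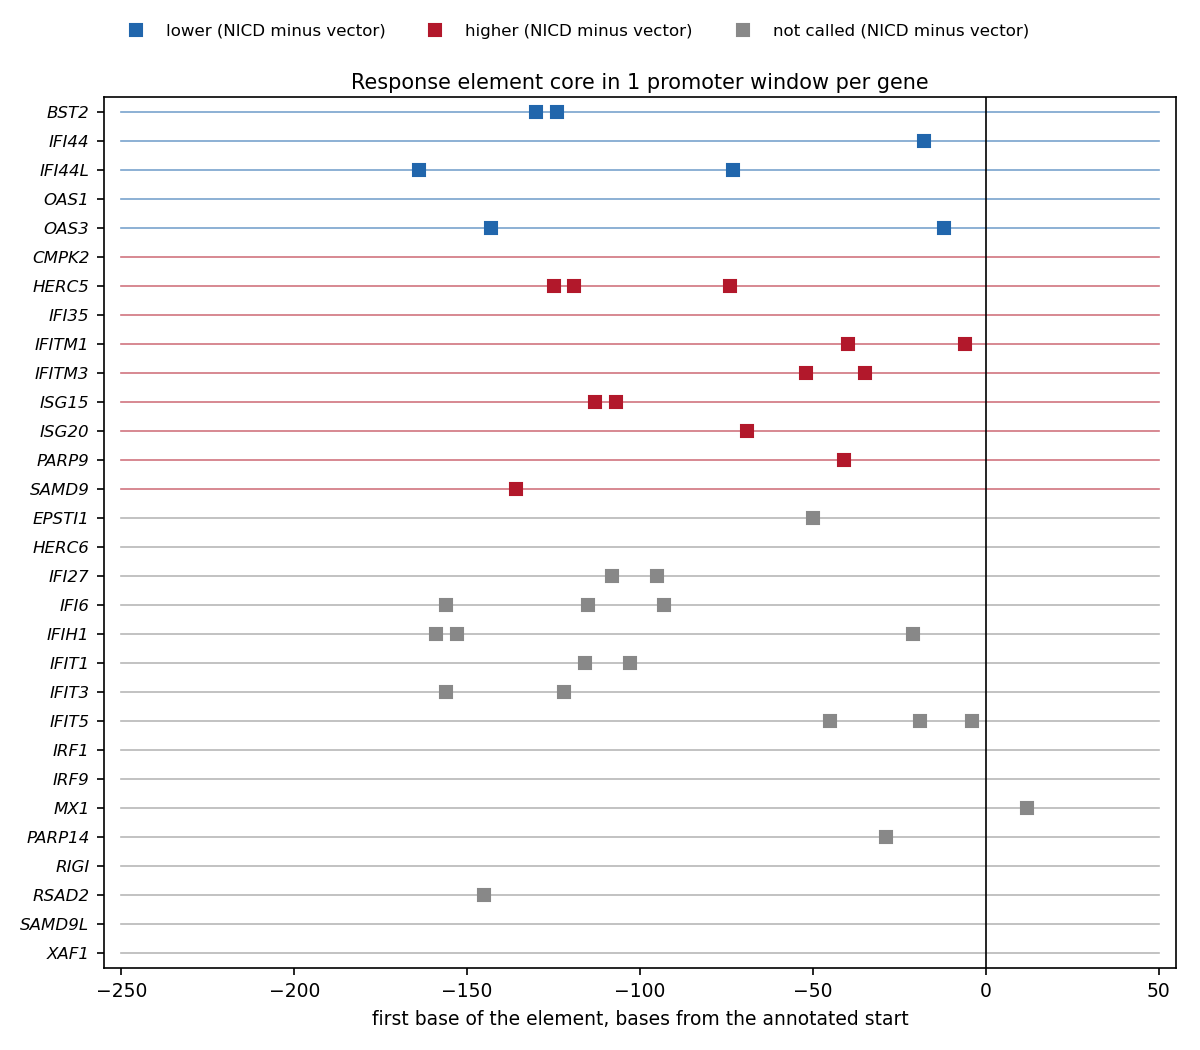
Positions of the response element core in 1 promoter window of each of 30 interferon response genes, as the distance in bases of the core's first base from the annotated start; where a gene has several windows, the window with the most cores is drawn. Blue, red and grey mark genes lower, higher or not called in NICD minus vector, and cores stand in all 3 sets.

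The arrays fit the MCF-10A label, which names a line of mammary epithelial cells. The basal keratins KRT5 and KRT14 had group means from 13.3 to 13.9 on the log2 scale, and the epithelial cadherin CDH1 from 11.93 to 11.96. The leukocyte gene PTPRC stayed between 3.5 and 3.63 and the plasmacytoid dendritic cell gene CLEC4C between 3.63 and 3.93. Single markers of other cell types were bright too. The highest group means were 12.53 among luminal, 11.34 among leukocyte and dendritic cell, and 11.21 among fibroblast and endothelial markers. The constructs showed on the arrays: a NOTCH1 probe set had a mean of 6.54 with the vector and of 9.16, 8.74 and 8.79 with full-length Notch1, L1601P+∆P and NICD, while the brighter probe set of that gene ran from 9.44 to 9.72. The Notch target NRARP stood at 6.63 with the vector, 6.94 with full-length Notch1, 8.81 with L1601P+∆P and 11.06 with NICD. Of 7 Notch target genes, NOTCH1 on its brighter probe set included, limma called 0 higher with full-length Notch1 (1 at an unadjusted p under 0.05), 4 with L1601P+∆P and 6 with NICD. Over all probe sets, arrays correlated at 0.995 to 0.998 within groups and at 0.983 to 0.998 between them. No array stood apart.

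With NICD the interferon response genes did not move as a block. Of the 38 genes, 12 rose and 6 fell against the vector (limma, p adjusted by Benjamini-Hochberg across every gene tested, threshold 0.05), and 20 were not called. Over all 19775 genes 27.6% were called in this comparison, 9.54% higher and 18.1% lower. Among all called genes 34.6% were higher, a share that became 51.6% under cyclic loess normalization. Of the interferon response genes, 31.6% were called higher and 15.8% lower. Their median difference was 0.05 on the log2 scale, beside -0.02 for all genes, and single genes ran from -1.77 for IFI44L to 1.35 for TRIM22. Called changes of at least 2-fold were found in 4 of the 38, against 2.82% of all genes: TRIM22 and ISG20 upward, IFI44L and IFI44 downward. The set was chosen with earlier results of these data known, so its counts are a description.

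**Figure D2:**
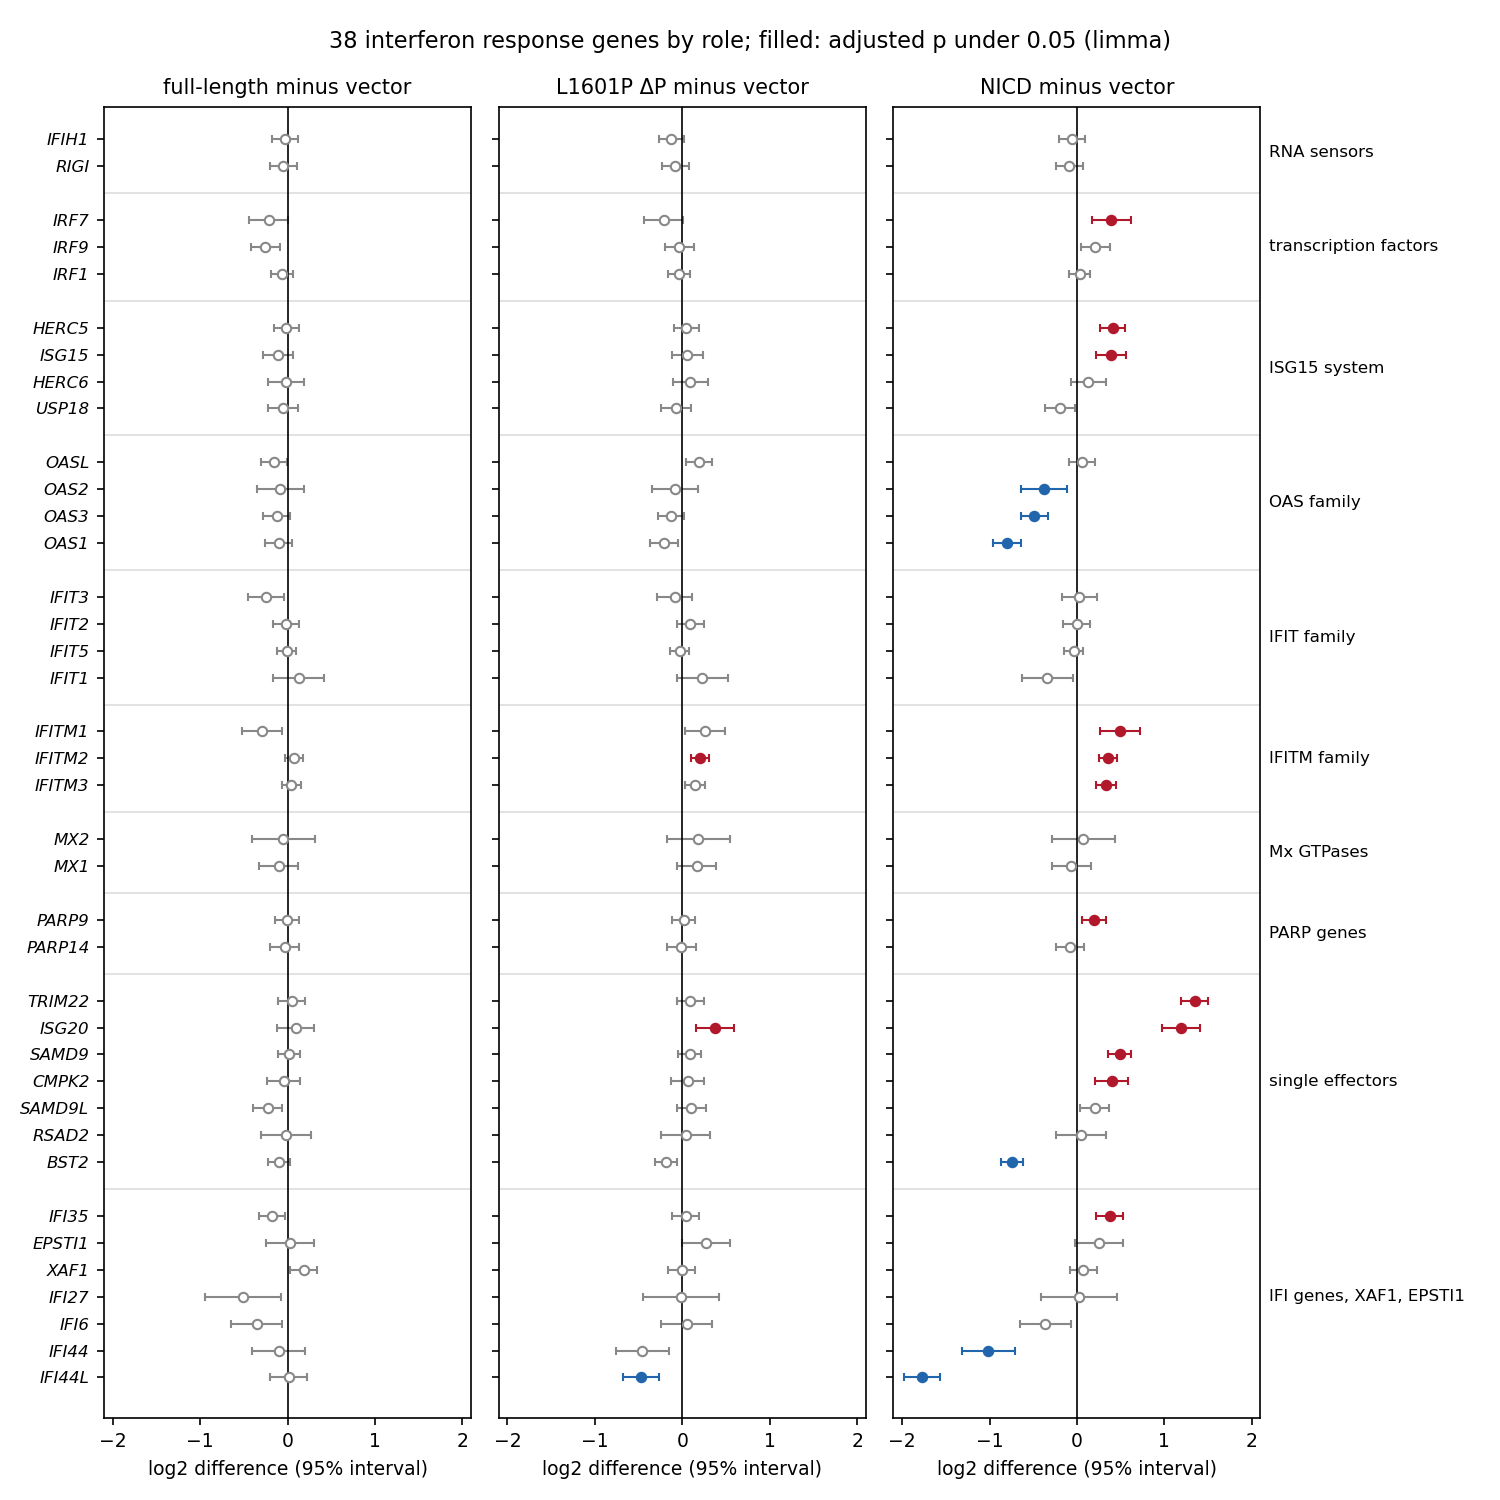
Difference from the vector on the log2 scale, with its 95% interval (limma), for 38 interferon response genes grouped by role, in full-length Notch1, Notch1 L1601P+∆P and NICD. Filled symbols have an adjusted p under 0.05 (red higher, blue lower): 0, 3 and 18 genes from left to right.

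IFI44L, an interferon-induced cytoplasmic protein known as a feedback regulator of the response, showed the largest drop. Its log2 signals were 9.02, 9.10 and 8.81 with the vector, 9.02, 8.89 and 9.05 with full-length Notch1, 8.65, 8.49 and 8.38 with L1601P+∆P, and 7.21, 7.07 and 7.33 with NICD. All NICD arrays lay below all L1601P+∆P arrays, which in turn lay below all arrays of the other groups, while vector and full-length overlapped. NICD minus vector was -1.77 ± 0.10 (SE), a 3.41-fold lower signal (limma adjusted p = 1.82e-08).

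IFI44, the neighbour and relative of IFI44L, moved the same way. It read 8.07, 7.98 and 7.67 with the vector, 7.67, 7.77 and 7.97 with full-length Notch1, 7.68, 7.56 and 7.10 with L1601P+∆P, and 6.90, 6.90 and 6.87 with NICD. The NICD arrays were the lowest and lay close together, and the other groups overlapped. The drop against the vector was -1.02 ± 0.14, or 2.02-fold (limma adjusted p = 0.000116). A second, dimmer IFI44 probe set with a vector mean of 4.34 gave -0.17, which was not called.

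TRIM22, a ubiquitin ligase that restricts several viruses, rose most. Its signals were 10.19, 10.23 and 9.97 with the vector, 10.16, 10.14 and 10.22 with full-length Notch1, 10.18, 10.19 and 10.29 with L1601P+∆P, and 11.55, 11.47 and 11.41 with NICD. The NICD arrays stood apart from an otherwise flat gene, and the L1601P+∆P difference of 0.09 from the vector was not called (95% interval -0.06 to 0.25). NICD minus vector was 1.35 ± 0.07, 2.55-fold higher (limma adjusted p = 1.40e-08).

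ISG20, an exonuclease that degrades viral RNA, rose in steps instead. It read 6.52, 6.58 and 6.50 with the vector, 6.69, 6.53 and 6.65 with full-length Notch1, 6.94, 6.96 and 6.83 with L1601P+∆P, and 7.65, 8.0 and 7.53 with NICD. Full-length and vector arrays overlapped, the L1601P+∆P arrays lay above both, and the NICD arrays above these. NICD minus vector was 1.19 ± 0.10, 2.29-fold higher (limma adjusted p = 1.19e-06), and a second ISG20 probe set gave 1.48.

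**Figure D3:**
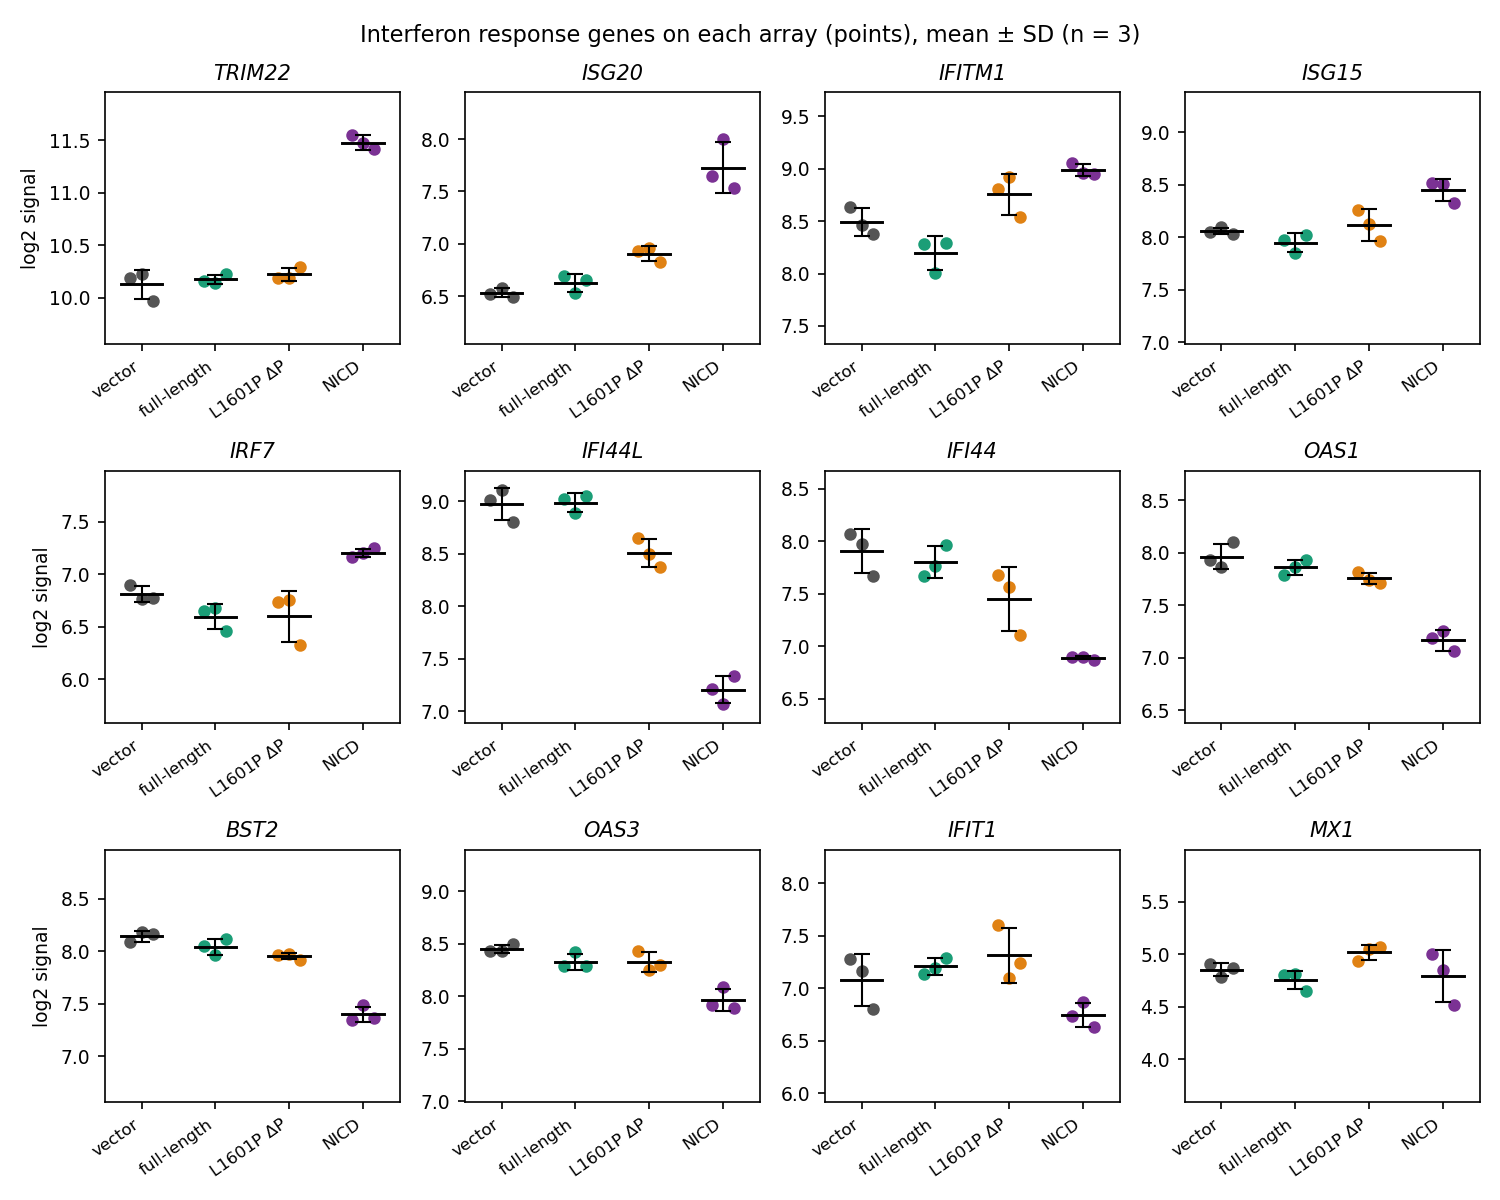
Log2 signal of 12 interferon response genes on each of the 12 arrays (points), with the mean and SD of the 3 arrays of each group (lines and bars); every panel spans the same height on the log2 scale but starts at its own level. In TRIM22, ISG20, IRF7, IFI44L, IFI44, OAS1, BST2 and OAS3 the 3 NICD arrays stand clear of all others, with smaller gaps in IFITM1 and ISG15, while IFIT1 and MX1 overlap between NICD and vector.

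The oligoadenylate synthetases, which make oligoadenylate messengers on binding double-stranded RNA, fell in 3 of 4 cases. OAS1 read 7.93, 7.86 and 8.10 with the vector and 7.19, 7.25 and 7.06 with NICD, and OAS3 read 8.43, 8.43 and 8.50 against 7.92, 8.09 and 7.89. Neither pair of groups overlapped. NICD minus vector was -0.80 ± 0.07 for OAS1 (limma adjusted p = 3.01e-06) and -0.49 ± 0.07 for OAS3 (0.000166). A second OAS1 probe set gave -0.84, whereas a second, dimmer OAS3 probe set gave -0.07 and was not called. OAS2 is the weak case. It read 5.27, 5.36 and 5.03 with the vector and 4.77, 4.68 and 5.10 with NICD, so the groups overlapped, and the difference of -0.37 ± 0.12 had an adjusted p of 0.0375 by limma. That call was lost without vector replicate 1 or 2 and without NICD replicate 1 or 2, and when all OAS2 probe sets were averaged. OASL, the family member without synthetase activity, stood at 0.06 ± 0.07 and was not called.

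BST2, or tetherin, which holds budding virus at the cell surface, fell as well. It read 8.09, 8.18 and 8.16 with the vector, 8.05, 7.96 and 8.12 with full-length Notch1, 7.97, 7.98 and 7.92 with L1601P+∆P, and 7.35, 7.49 and 7.37 with NICD. NICD minus vector was -0.74 ± 0.06, 1.67-fold lower (limma adjusted p = 7.21e-07). The L1601P+∆P arrays also lay below all vector arrays, with a difference of -0.19 ± 0.06 that was not called (adjusted p = 0.0879).

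The membrane proteins of the IFITM family, which block the fusion of entering viruses, rose in 3 of 3 cases. IFITM1 read 8.63, 8.47 and 8.38 with the vector, 8.29, 8.01 and 8.29 with full-length Notch1, 8.81, 8.92 and 8.54 with L1601P+∆P, and 9.05, 8.96 and 8.95 with NICD. NICD minus vector was 0.50 ± 0.11 (limma adjusted p = 0.00319). The full-length arrays lay below the vector arrays, at -0.30 ± 0.11, without a call. IFITM2 and IFITM3, already among the brightest signals, with vector means of 13.38 and 13.40, rose by 0.36 ± 0.05 and 0.33 ± 0.05. Their probe sets can cross-react between these near-identical genes, so the pair is uncertain as independent measurements.

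The ISG15 system, which attaches a ubiquitin-like tag to proteins, was split. ISG15, the tag itself, read 8.05, 8.10 and 8.03 with the vector and 8.51, 8.51 and 8.32 with NICD, a rise of 0.39 ± 0.08 (limma adjusted p = 0.00271). HERC5, the ligase that attaches it, rose by 0.41 ± 0.07 from a vector mean of 5.50. USP18, the protease that removes the tag and also blocks the interferon receptor, stood at -0.20 ± 0.08 and was not called (adjusted p = 0.085) except without vector replicate 1, and HERC6 stood at 0.13 ± 0.09.

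Of the transcription factors, IRF7, which amplifies interferon production, rose by 0.39 ± 0.10 (limma adjusted p = 0.0116). Its arrays read 6.89, 6.76 and 6.77 with the vector, 6.64, 6.68 and 6.46 with full-length Notch1, 6.73, 6.75 and 6.32 with L1601P+∆P, and 7.17, 7.20 and 7.24 with NICD. Alone among the 18 called genes, IRF7 had an L1601P+∆P mean that did not lie between the vector and NICD means. IRF9, the DNA-binding part of the response-element factor, stood at 0.21 ± 0.08 without a call (adjusted p = 0.0605), and its NICD arrays lay at or above all vector arrays; it was called higher without vector replicate 2, L1601P+∆P replicate 3 or NICD replicate 2. IRF1 stood at 0.03 ± 0.06.

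Further single effectors rose modestly with NICD. SAMD9, a restriction factor of poxviruses, rose by 0.49 ± 0.06 on the probe set used and 0.49 on a second. CMPK2, a mitochondrial nucleotide kinase, rose by 0.40 ± 0.09, and IFI35 by 0.37 ± 0.07. PARP9, which acts with DTX3L in the response, rose by 0.19 ± 0.06 (limma adjusted p = 0.0389), the smallest called difference. That call was lost without any 1 of the 3 vector arrays and without NICD replicate 1 or 2.

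Many widely used interferon markers, among them the IFIT and Mx genes, were not called. The IFIT proteins, which bind foreign RNA, had differences from -0.34 to 0.03 and 0 of 4 calls by limma, with IFIT1 at an unadjusted p of 0.0278. IFIT1 read 7.28, 7.17 and 6.81 with the vector and 6.74, 6.87 and 6.63 with NICD, and these groups overlapped. It was called lower without vector replicate 3 or L1601P+∆P replicate 1, and with trended robust moderation, with a lowest adjusted p of 0.0178. The dynamin-like GTPases MX1 and MX2 stood at -0.06 ± 0.10 and 0.07 ± 0.17, and RSAD2, or viperin, at 0.05 ± 0.13. IFI27 stood at 0.02 ± 0.20 and IFI6, a mitochondrial survival factor, at -0.36 ± 0.13 (limma adjusted p = 0.0664), the latter called lower without full-length replicate 1 or L1601P+∆P replicate 1. The RNA sensors RIGI and IFIH1 stood at -0.09 ± 0.07 and -0.06 ± 0.07 on the probe sets used, though a second RIGI probe set fell by 0.37 (adjusted p = 0.00231 over all probe sets). XAF1, EPSTI1, SAMD9L, PARP14 and HERC6 were not called either, at -0.08 to 0.25. A missed threshold does not show equal levels: the 95% interval for MX1, for one, ran from -0.29 to 0.16.

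Of 11 groups of neighbouring genes, 5 had all genes called in 1 direction with NICD, 4 held called and uncalled genes, and 2 had none called. The same count for neighbouring genes over the genome was not made, and 27.6% of all genes were called in this comparison. The ISG15 and TRIM22 groups exist only through HES4 and TRIM5 from other lists, and the OAS group rests in part on the weak OAS2 call. By RefSeq gene order, IFI44L and IFI44 are neighbours and both fell, and so did OAS1, OAS3 and OAS2, which follow each other. IFITM2, IFITM1 and IFITM3 all rose, with the limit on cross-reaction given above. TRIM22 lies 4 protein-coding genes from TRIM5, another restriction factor, which rose by 1.67 ± 0.07. ISG15 lies beside HES4, a Notch target that rose by 2.03 ± 0.09. No gene was called among IFIT2, IFIT3, IFIT1 and IFIT5 or in MX2 and MX1. In the remaining groups, CMPK2 rose and RSAD2 was not called, PARP9 and DTX3L rose and PARP14 was not called, and of SAMD9 and SAMD9L, as of HERC5 and HERC6, the former gene rose while the latter was not called. Differences within these pairs were not tested.

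**Figure D4:**
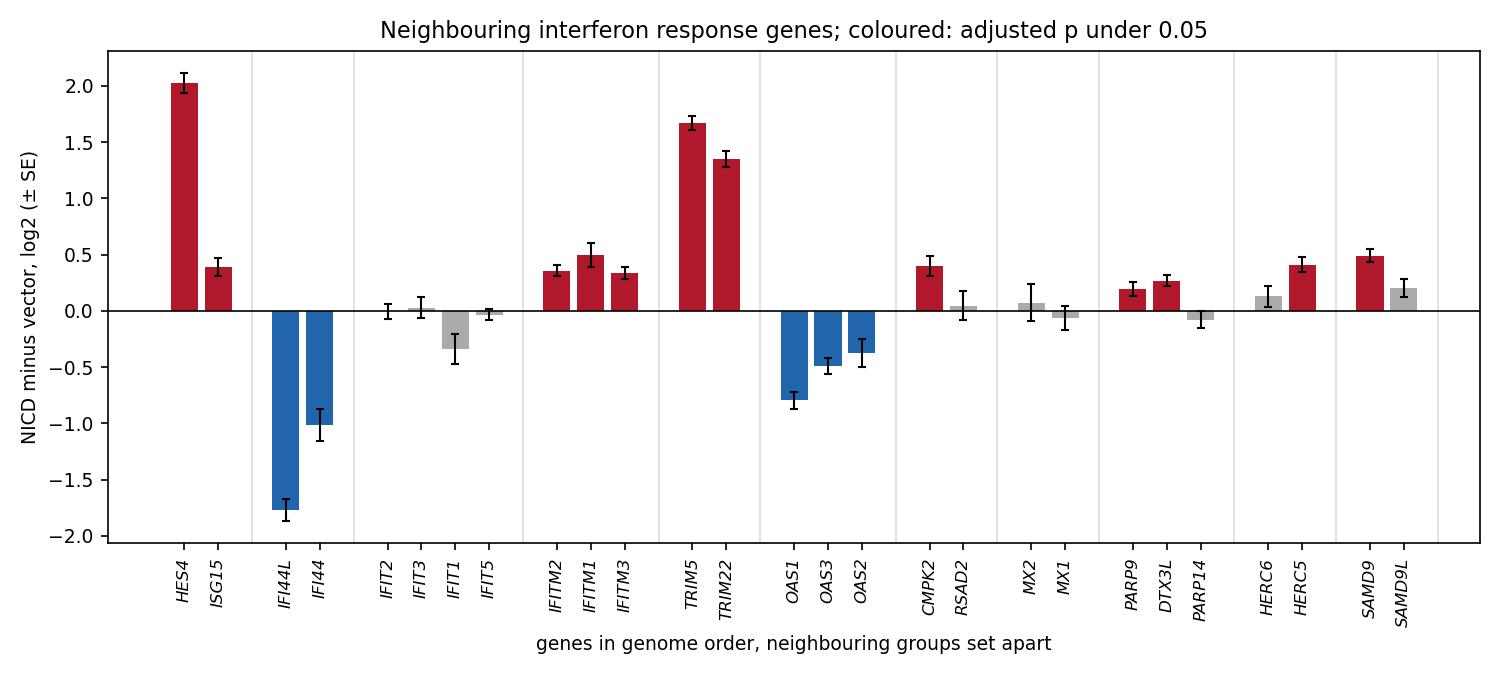
NICD minus vector on the log2 scale (bars, ± SE) for interferon response genes that lie within 4 protein-coding genes of each other or of another gene on the lists, in genome order. HES4, TRIM5 and DTX3L come from other lists. The IFI44L and OAS groups are blue (lower), the IFITM and TRIM groups red (higher), and grey bars were not called.

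With Notch1 L1601P+∆P few genes were called, on this list as over all genes. Against the vector, 2 of 38 rose (5.26%) and 1 fell (2.63%), or 7.89% either way. Over all genes 5.12% were called, 2.16% higher and 2.95% lower. The share of higher genes among all called was 42.3%, and 58.4% under cyclic loess. IFI44L fell by 0.47 ± 0.10, a signal 1.38-fold lower (limma adjusted p = 0.0132). That call was lost without vector replicate 2 and without L1601P+∆P replicate 2, the highest adjusted p being 0.0544. ISG20 rose by 0.37 ± 0.10 (adjusted p = 0.0493) and IFITM2 by 0.20 ± 0.05 (adjusted p = 0.0308). The ISG20 call was lost in 12 of 19 alternative settings, among them every vector, full-length and L1601P+∆P array left out and NICD replicate 1. The IFITM2 call was lost in 8 of 19, among them vector replicates 2 and 3, full-length replicate 2 and L1601P+∆P replicates 1 and 2. Values for genes that fell with NICD were -0.46 ± 0.14 for IFI44 (adjusted p = 0.0848) and -0.21 ± 0.07 for OAS1 (adjusted p = 0.128), neither called. In 17 of the 18 genes called with NICD, the L1601P+∆P mean lay between the vector and NICD means. These genes were selected by their NICD difference on the same arrays, and the share over all called genes was not computed. The count therefore does not show a graded response. It includes genes with little L1601P+∆P difference from the vector, such as TRIM22 at 0.09 and PARP9 at 0.01.

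The step from L1601P+∆P to NICD was itself testable. NICD minus L1601P+∆P gave 11 higher and 7 lower of 38, with 19.8% of all genes called, 8.73% higher and 11.1% lower. TRIM22 was higher by 1.25 ± 0.07, ISG20 by 0.82 ± 0.10 and IRF7 by 0.60 ± 0.10. IFI44L was lower by a further -1.30 ± 0.10 (limma adjusted p = 6.76e-07), OAS1 by -0.59 ± 0.07 and BST2 by -0.55 ± 0.06. IFIT1 was lower as well, at -0.57 ± 0.13 (adjusted p = 0.00965), from L1601P+∆P arrays at 7.60, 7.10 and 7.24. This comparison and NICD minus vector share the NICD arrays. The count of higher genes was 7 without L1601P+∆P replicate 2, and the calls of IFI6 (-0.41 ± 0.13, adjusted p = 0.0488) and IRF9 (0.25 ± 0.08, adjusted p = 0.04) were each lost in 11 of 19 alternative settings. Among these, the IFI6 call went without vector replicate 1 or 3, full-length replicate 2 or 3, L1601P+∆P replicate 1 or 2, or NICD replicate 2 or 3. The IRF9 call went without vector replicate 1, any full-length or L1601P+∆P array, or NICD replicate 1 or 3.

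With intact full-length Notch1, none of the 38 genes was called against the vector by limma, where 0.0354% of all genes were called, 0.0303% higher and 0.00506% lower. By the unadjusted p (under 0.05), 1 gene was higher and 8 were lower, where 2.25% and 3.08% of all genes were higher and lower by that rule. The lowest adjusted p was 0.814. In 13 of 38 genes (34.2%) all full-length arrays lay below all vector arrays, against 6.42% of all genes, and in 2 all lay above, against 4.59%. With another normalization (cyclic loess) or probe set rule the 13 became 10 to 13. IRF9 is an example: its arrays read 8.14, 8.19 and 7.97 with the vector and 7.84, 7.85 and 7.83 with full-length Notch1, a difference of -0.26 ± 0.08 (limma adjusted p = 0.814). IFI27 read 7.67, 7.92 and 7.50 against 7.37, 6.91 and 7.26, at -0.51 ± 0.20, and IFI6 stood at -0.35 ± 0.13. All 3 differences are below the call threshold, and the genes are read from the same 6 arrays.

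Set against full-length Notch1 in place of the vector, further genes were called; both comparisons share the full-length arrays. NICD minus full-length gave 16 higher and 6 lower of 38 (27.0% of all genes called, 10.1% higher and 17.0% lower). Beyond the genes already called against the vector, IRF9 was higher by 0.47 ± 0.08, SAMD9L, the paralogue of SAMD9, by 0.43 ± 0.08, IFIT3 by 0.28 ± 0.09 and OASL by 0.22 ± 0.07, and IFIT1 was lower by -0.46 ± 0.13. The IFIT3 call (limma adjusted p = 0.0456) was lost in 10 of 19 alternative settings, among them vector replicates 1 and 2, all full-length arrays, L1601P+∆P replicate 3 and NICD replicates 1 and 2. The OASL call was lost without any 1 full-length array or NICD replicate 1 or 2, and the IFIT1 call without full-length replicate 3 or NICD replicate 1 or 3. L1601P+∆P minus full-length gave 3 higher and 1 lower (3.72% of all genes called, 1.86% in each direction): IFITM1 at 0.56 ± 0.11, OASL at 0.35 ± 0.07, SAMD9L at 0.33 ± 0.08 and IFI44L at -0.48 ± 0.10. The higher calls were 1 without full-length replicate 3 or L1601P+∆P replicate 1 and 0 without L1601P+∆P replicate 2. The SAMD9L call (limma adjusted p = 0.0355) was lost in 9 of 19 alternative settings. Among these were any 1 full-length or L1601P+∆P array left out and cyclic loess. The OASL call was lost in 5 and the IFITM1 call in 2. The lower call was lost without full-length replicate 3 and without L1601P+∆P replicate 2 or 3.

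The interferon genes themselves gave little signal. Group means of 18 type I, II and III interferon genes ran from 2.80 to 6.34, on a scale whose lowest deposited value was 2.3. With NICD, 0 of the 18 rose by limma and 1 was at an unadjusted p under 0.05 and higher, IFNB1 at 0.30 ± 0.11 (adjusted p = 0.0721). IFNB1, the interferon most epithelial cells make first, read 3.95 on average with the vector and 4.26 with NICD, and was called without L1601P+∆P replicate 3 or without NICD replicate 2. IFNE, an interferon of the reproductive tract, fell by 0.56 ± 0.11 from a mean of 3.98 (adjusted p = 0.00153). This 1 call is 5.56% of the list, beside 27.6% of all genes called, 9.54% higher and 18.1% lower. Across the alternative settings 0 to 2 interferon genes were called lower. Without vector replicate 2, 2 interferon genes were called lower.

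Receptors and kinases of the pathway moved mostly upward with NICD. Of 9 tested, 6 rose and 0 fell, with a median of 0.32 beside the -0.02 of all genes, of which 9.54% were called higher and 18.1% lower. The type I receptor chains IFNAR1 and IFNAR2 rose by 0.49 ± 0.07 and 0.28 ± 0.06, the type II chains IFNGR1 and IFNGR2 by 0.56 ± 0.05 and 0.69 ± 0.05, and the kinases JAK1 and JAK2 by 0.32 ± 0.07 and 0.70 ± 0.11. TYK2, IFNLR1 and IL10RB were not called, at 0.02, 0.08 and -0.16. The JAK1 call was lost when its probe sets were averaged. With L1601P+∆P only IFNGR2 was called, at 0.27 ± 0.05 (limma adjusted p = 0.0135), which was lost without L1601P+∆P replicate 1.

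Of 15 nucleic acid sensing genes, 0 were called higher by limma and 4 lower with NICD, with a median of -0.06 and 0 higher at an unadjusted p under 0.05. That is 26.7% of the list called, close to the 27.6% of all genes, of which 18.1% were lower. CGAS, the cytosolic DNA sensor, fell by 0.71 ± 0.14, and TRIM25, the ligase that activates RIGI, by 0.58 ± 0.05. TICAM1, the adaptor of TLR3, fell by 0.29 ± 0.08 and IRF3, the factor that starts interferon transcription, by 0.28 ± 0.10 (limma adjusted p = 0.0451). The last call was lost in 13 of 19 alternative settings, among them vector replicate 3, every full-length and L1601P+∆P array and NICD replicates 1 and 3 left out, and the list had 2 lower calls without vector replicate 3 or under cyclic loess. The inhibitors TNFAIP3 and CYLD, deubiquitinases that also restrain NF-kB, rose by 1.88 ± 0.06 and 0.56 ± 0.05, and PTPN2, a phosphatase of JAK kinases, fell by 0.32 ± 0.06 among 8 negative regulators. The PTPN2 value turned to 0.25 on its most variable probe set.

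Other interferon-stimulated genes also moved both ways. Of 33, 12 rose and 5 fell with NICD, with a median of 0.11. The shares of 36.4% higher and 15.2% lower stand beside 9.54% and 18.1% of all genes. TRIM5 rose by 1.67, SP110, a nuclear body protein, by 1.57 ± 0.07, PLSCR1, a phospholipid scramblase with antiviral action, by 1.10 ± 0.05, and UBE2L6, the conjugating enzyme of ISG15, by 0.47 ± 0.07. LY6E, a surface protein that blocks coronavirus fusion, fell by 1.36 ± 0.08, SAMHD1, which depletes nucleotides, by 0.46 ± 0.05, TRIM14 by 0.39 ± 0.06 and SP100 by 0.29 ± 0.05. Antigen presentation genes rose in 8 of 13 cases and fell in 3, with a median of 0.20, or 61.5% higher and 23.1% lower beside the same shares of all genes. TAPBP, which loads peptides, rose by 0.84 ± 0.07, the immunoproteasome subunit PSMB9 by 0.61 ± 0.07, HLA-F by 0.55 ± 0.06 and HLA-B by 0.48 ± 0.06, whereas PSMB8, PSMB10 and TAP2 fell by 0.30 ± 0.09, 0.30 ± 0.07 and 0.22 ± 0.05. Under cyclic loess 1 of these 3 was called lower, and the PSMB8 call was also lost without vector replicate 1. HLA genes share sequence, so their probe sets may cross-react.

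**Figure D5:**
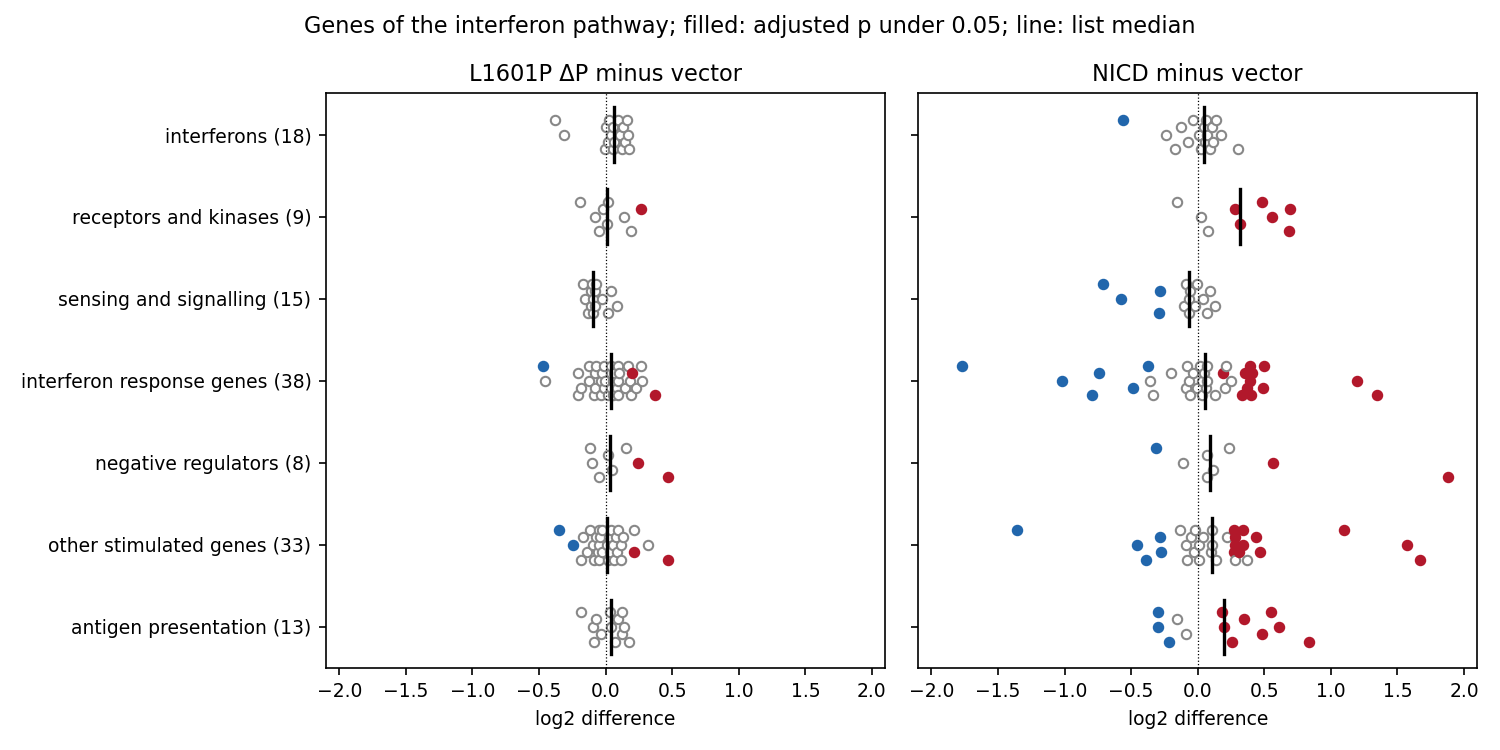
Log2 difference from the vector of each gene (circles) on 7 lists of the interferon pathway, for Notch1 L1601P+∆P and NICD, with the number of genes tested in brackets and the list median as a black line. Filled circles have an adjusted p under 0.05 by limma (red higher, blue lower): with NICD, receptors and kinases hold 6 red and 0 blue, sensing genes 0 red and 4 blue.

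With L1601P+∆P, 5.12% of all genes were called, against 12.1% of the other stimulated genes, 25% of the 8 negative regulators and 11.1% of the 9 receptors and kinases. SP110 rose by 0.47 ± 0.07 and PLSCR1 by 0.21 ± 0.05, while LY6E fell by 0.35 ± 0.08 and SAMHD1 by 0.25 ± 0.05, 4 of 33 in all. The PLSCR1 call was lost without vector replicate 2 or 3 or L1601P+∆P replicate 1 or 2, the LY6E call without vector replicate 3 or L1601P+∆P replicate 2 or 3, and the SAMHD1 call without vector replicate 1 or under cyclic loess. TNFAIP3 rose by 0.47 ± 0.06, CYLD by 0.24 ± 0.05. The CYLD call was lost without vector replicate 2 or 3 or L1601P+∆P replicate 1. No interferon, sensing or antigen presentation gene was called by limma, with 2, 2 and 3 at an unadjusted p under 0.05. With full-length Notch1, limma called 0 genes on any of these lists, with 2 interferon genes, 0 receptors, 2 sensing genes, 0 negative regulators, 2 other stimulated genes and 1 antigen presentation gene at an unadjusted p under 0.05.

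Markers of other cell types moved in places along with NICD, and their part in these results was not tested. With NICD, 25% of the leukocyte and dendritic cell list and 20% of the fibroblast and endothelial list were called either way. The shares were 66.7% of the basal and 57.1% of the luminal markers. Over all genes 27.6% were called, 9.54% higher and 18.1% lower. Of 8 leukocyte and dendritic cell genes, CD14, also an innate sensor of epithelium, rose by 2.59 ± 0.06 and CD163 fell by 0.27 ± 0.09. The CD163 call was lost in 8 of 18 alternative settings, among them any 1 vector array, L1601P+∆P replicate 2 or NICD replicate 2 or 3 left out, and its sign turned (0.047) on its most variable probe set. PTPRC and CLEC4C stayed at the levels above and LYZ at 3.69 to 3.86. The list's mean log2 signal per array was 5.14 to 5.19 with the vector, 5.01 to 5.25 with full-length Notch1, 5.28 to 5.36 with L1601P+∆P and 5.47 to 5.48 with NICD. With NICD this list's median difference from the vector was 0.01, and the rise in its mean came mostly from CD14. Of 10 fibroblast and endothelial genes, POSTN rose by 4.38 ± 0.10 and DCN by 0.36 ± 0.05, while LUM stayed at 3.17 to 3.28 and CDH5 at 3.37 to 3.60. With L1601P+∆P, CD14 rose by 0.86 and POSTN by 2.07. The mean of the fibroblast and endothelial list ran from 5.64 to 5.69, 5.59 to 5.72, 5.92 to 5.95 and 6.16 to 6.19 in the same order. Its rise came mostly from POSTN, and the list's median difference with NICD was 0.10. Of 6 basal epithelial markers 2 rose and 2 fell with NICD, among them the integrin ITGB4, which fell by 1.97 ± 0.06. The list's mean per array was 11.93 to 11.996 with the vector, 12.03 to 12.05 with full-length Notch1, 11.97 to 12.04 with L1601P+∆P and 11.68 to 11.80 with NICD. The lower mean with NICD came mostly from ITGB4, as the median difference of the basal list was 0.08. Of 7 luminal markers 1 rose and 3 fell, among them the factor FOXA1, which fell by 1.09 ± 0.11. That list ran from 7.48 to 7.59, 7.51 to 7.54, 7.47 to 7.61 and 7.30 to 7.47 in the same order, with a median difference of -0.10 for NICD minus vector. In bulk samples fewer cells of a type and less RNA per cell cannot be told apart.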

How the data were processed

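The values are log2 signals of 12 Affymetrix arrays deposited by the authors, normalized with RMA, per the submitters' processing notes, which also name limma, both with version not given in the sources used here. Of 54675 probe sets, 41091 have 1 gene symbol in the platform annotation and 1801 have several; the latter name no gene here, and 62 control probe sets were left out. The probe set with the highest mean stood for each of 19775 genes. Quantile steps in RMA give arrays a shared distribution (medians 5.64 to 5.70), so changes are relative to the other genes, and the small number of arrays limits the precision. All arrays entered 1 limma fit (version 3.58.1, R 4.3.3; plain eBayes) with 6 comparisons, tested on simulated data, and p-values were adjusted (Benjamini-Hochberg) over all genes. The genes, lists and comparisons were chosen with earlier results of these data known. All 38 response genes could be named; of the other lists, up to 4 called genes per direction, any interferon, receptor, kinase or Notch target gene, and, after values were seen, DTX3L as a neighbour of PARP9 and marker genes as checks. Alternatives changed the normalization, dim-gene filter, moderation, probe set rule, arrays fitted, replicate block, arrays left out and threshold.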

Additional observations from a re-analysis of the deposited data

How the results depend on the processing

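Against the vector, the NICD counts of 12 higher and 6 lower response genes stayed at 11 to 13 and 5 to 8 with single arrays left out, and within 1.5 times under the other settings. None of the 38 genes turned its direction in a called comparison. Only the OAS2 and PARP9 calls were lost in that comparison at an adjusted p of 0.05, and genes not called passed in some settings: IFI6 and IRF9 in 6 each, IFIT1 in 3, SAMD9L in 2 (dim-gene filter and replicate block), and 1 each for USP18 (without vector replicate 1), EPSTI1 (without NICD replicate 2) and RIGI (most variable probe set). The L1601P+∆P results were less stable. Against the vector, the 2 higher genes became 3 with trended robust moderation, which added IFITM3. They became 0 with the most variable probe set, 1 with only the 6 arrays compared, 0 with the replicate block and 0 at an adjusted p under 0.01. With single arrays left out they were 0 to 2. The 1 lower gene became 2 with trended robust moderation, 0 at an adjusted p under 0.01 and 0 to 1 with single arrays left out. Against full-length Notch1, the 3 higher genes became 5 with trended robust moderation, 1 with only the 6 arrays compared, 0 at the stricter threshold and 0 to 4 with single arrays left out, and the 1 lower gene 0 at the stricter threshold and 0 to 1 with single arrays left out. NICD minus L1601P+∆P gave 11 higher genes, 6 at the stricter threshold and 7 to 11 with single arrays left out, and 7 lower, 5 to 8. NICD minus full-length gave 16 higher, 13 to 17, and 6 lower, 5 to 6; full-length minus vector stayed at 0. With the most variable probe set, PTPN2, B2M and CD163 turned to 0.25, -0.13 and 0.047 in NICD minus vector. The cause of these changes was not tested.

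Arrays with the same replicate number did not deviate together: correlations ran from -0.11 to 0.16 for same numbers and from -0.11 to 0.14 for different ones, and 2 of 12 arrays correlated best with their own number. With the replicate block, NICD minus vector had 5171 called genes over all genes in place of 5460, L1601P+∆P minus vector 845 in place of 1012, and full-length minus vector 4 in place of 7. Under cyclic loess the share of higher genes among all called genes moved from 34.6% to 51.6% in NICD minus vector, from 42.3% to 58.4% in L1601P+∆P minus vector, from 50.1% to 62.5% in L1601P+∆P minus full-length, from 37.3% to 52.9% in NICD minus full-length and from 44.0% to 53.1% in NICD minus L1601P+∆P. Signals near the lower end of the scale, such as those of the interferon genes, limit what can be detected there.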
